A study of Mus musculus with 4 samples.

Results

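Hemoglobin and erythroid genes were followed in PMN-MDSCs, the neutrophil-like suppressor cells of the neonatal spleen. The genes were chosen by name and number 9: the adult globins Hba-a1, Hba-a2, Hbb-bs and Hbb-bt, the embryonic globin Hbb-bh1, and Alas2, Slc4a1, Ahsp and Car2. Values for 7 of the 9 were used, out of 28585 genes listed, and Hbb-bh1 and Ahsp were not analysed here. The data are 4 bulk RNA sequencing libraries of C57BL/6J pups on postnatal day 7, 2 labelled Dhps cko and 2 labelled Dhps flox. Both genotypes carry floxed alleles of Dhps (Dhps fl/fl), which encodes deoxyhypusine synthase, and the Dhps cko pups (Dhps ΔLysm) also carry Lysm cre, a Cre recombinase made from the lysozyme locus in myeloid cells. The cells were sorted as CD11b+ Ly6C lo/- Ly6G+, a gate that contains no erythroid marker, and whether red cells were lysed beforehand is not given in the sources used here. The labels do not say whether replicates came from separate pups or pools, so p-values measure the spread between these libraries, which may be technical.

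Hemoglobin is a tetramer of paired alpha-type and beta-type globin chains, each holding a haem group. Mice make embryonic globins in the first, yolk-sac-derived red cells and switch before birth to the adult alpha chains of Hba-a1 and Hba-a2 and, on the C57BL/6 haplotype, the adult beta chains of Hbb-bs and Hbb-bt. The spleen of a newborn mouse is itself a site of red cell formation, and red cell precursors and reticulocytes contain very large amounts of globin mRNA.

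The adult copies of each chain are almost identical in sequence, which bears on every value given for a single globin gene. The coding sequences of Hba-a1 and Hba-a2 are 429 bases long and differ at 1 base, and those of Hbb-bs and Hbb-bt are 444 bases long and also differ at 1 base. Counted from the first base of the start codon, the substitutions are C381T from Hba-a1 to Hba-a2 and C417T from Hbb-bs to Hbb-bt. The stretches below come from the GENCODE M21 transcripts (GRCm38) and show the coding strand 5′ to 3′, from base 351 to 411 for the alpha genes and from base 387 to 444 for the beta genes, with the differing base in capitals.
Hba-a1: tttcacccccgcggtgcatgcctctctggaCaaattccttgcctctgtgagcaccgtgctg
Hba-a2: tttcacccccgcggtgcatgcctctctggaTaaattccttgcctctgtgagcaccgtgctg
Hbb-bs: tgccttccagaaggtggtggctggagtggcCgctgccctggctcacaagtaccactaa
Hbb-bt: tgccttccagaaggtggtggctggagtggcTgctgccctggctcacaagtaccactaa
Of the windows of 50 bases in the Hba-a2 transcript, 86.9% also occur in that of Hba-a1, and of those in the Hbb-bs transcript, 65.8% also occur in that of Hbb-bt. How reads that match both copies were divided is not given in the sources used here, so the split within each pair is uncertain and the sum of each pair is given as well. The embryonic Hbb-bh1 is far enough away for its reads to be told apart, with 74.1% identity to Hbb-bs over the coding sequence and 0 shared windows of 50 bases.

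The promoters of the adult globins are shown because these genes varied together between libraries, with that of Alas2 as 1 example from outside the globins. Slc4a1, which varied in the same way, is not shown. They are the 100 bases before the RefSeq transcription start (GRCm38.p6), on the strand of the gene, 5′ to 3′. Capitals mark matches on either strand to 4 motifs. The CACCC box was searched as CCACACCC and as its shorter form CCACCC, and the CCAAT box by its own letters. The GATA motif was searched as AGATAA, with TGATAA as a variant, and with a final G as AGATAG, of which TGATAG was the variant. The TATA motif was searched as ATATAA and in the form CATAAAA.
Hba-a1, chr11:32283572-32283671 (plus strand): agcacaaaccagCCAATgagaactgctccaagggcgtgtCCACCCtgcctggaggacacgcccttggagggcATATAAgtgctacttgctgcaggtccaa
Hba-a2, chr11:32296392-32296491 (plus strand): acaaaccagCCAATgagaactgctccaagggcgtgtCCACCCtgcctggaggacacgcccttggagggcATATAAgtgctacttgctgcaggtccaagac
Hbb-bs, chr7:103827929-103828028 (minus strand): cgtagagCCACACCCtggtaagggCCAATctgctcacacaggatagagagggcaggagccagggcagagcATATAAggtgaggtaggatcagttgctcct
Hbb-bt, chr7:103813924-103814023 (minus strand): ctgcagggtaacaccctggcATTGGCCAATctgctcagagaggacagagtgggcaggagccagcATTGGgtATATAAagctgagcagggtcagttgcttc
Alas2, chrX:150547317-150547416 (plus strand): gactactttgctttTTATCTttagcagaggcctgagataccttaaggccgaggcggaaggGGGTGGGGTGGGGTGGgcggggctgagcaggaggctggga
The windows of Hba-a1, Hba-a2 and Hbb-bs each held a CACCC match, a CCAAT match and a TATA match. Hbb-bt had the TATA match at 29 bases before the start and CCAAT matches on both strands, of which a pair adjoin. Neither CCACACCC nor CCACCC occurred in its window, although the bare letters CACCC did. Alas2 had 3 CACCC matches on the opposite strand, each sharing its end base with the next, and the only GATA match of the 5 windows. Among 32851 promoters of the same length, 15.26% held a CACCC match, 18.89% a CCAAT match, 10.4% a GATA match and 5.14% a TATA match.

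Adult globin mRNA was readily measured in all 4 libraries. Levels are given as FPKM, the fragments of a gene scaled to transcript length and to the mapped fragments of the library, so genes can be set against each other per length. Hbb-bs (chromosome 7, 103826534 to 103828096) was at 234 FPKM in Dhps cko replicate 1 and 298 FPKM in replicate 2, and at 199 and 284 FPKM in the Dhps flox replicates, in the order of their numbers that is used throughout. Hbb-bt (chromosome 7, 103812524 to 103813996) was at 98.2 and 127 FPKM in Dhps cko and at 94.2 and 132 FPKM in Dhps flox. For both beta-globin genes Dhps flox replicate 1 was the lowest library, and the genotypes overlapped.

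Hba-a1 (chromosome 11, 32283511 to 32284465) was at 211 and 235 FPKM in Dhps cko and at 165 and 261 FPKM in Dhps flox. Hba-a2 (chromosome 11, 32296489 to 32297298) was at 181 and 209 FPKM in Dhps cko and at 143 and 227 FPKM in Dhps flox. For both alpha-globin genes the Dhps flox libraries were the lowest and the highest of the 4, with the Dhps cko libraries between them. By mean FPKM the adult globins ranked from 110 (Hbb-bs) to 286 (Hbb-bt) among the 28585 genes, well below the neutrophil granule gene Ngp at 26339 to 27902 FPKM.

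The erythroid genes beside the globins were far lower, at a few FPKM. Alas2 (chromosome X, 150547375 to 150570638), which encodes the first enzyme of haem synthesis in red cell precursors, was at 3.83 and 4.51 FPKM in Dhps cko and at 2.93 and 5.35 FPKM in Dhps flox. Slc4a1 (chromosome 11, 102348824 to 102366203), which encodes the band 3 anion exchanger of the red cell membrane, was at 4.54 and 4.32 FPKM in Dhps cko and at 3.22 and 5.28 FPKM in Dhps flox. Both followed the alpha globins and Hbb-bt in having Dhps flox replicate 1 lowest and Dhps flox replicate 2 highest.

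Car2 (chromosome 3, 14886273 to 14900770), which encodes a cytosolic carbonic anhydrase of red cells that is made in several other cell types too, was at 4.54 and 4.48 FPKM in Dhps cko and at 5.05 and 3.83 FPKM in Dhps flox. Its order was the reverse of that of the alpha globins, with Dhps flox replicate 1 highest and Dhps flox replicate 2 lowest. In the order of mean level Hbb-bs came first, then Hba-a1, Hba-a2, Hbb-bt, Car2, Slc4a1 and Alas2. Hbb-bs was above Hba-a1, Hba-a1 above Hba-a2 and Hba-a2 above Hbb-bt in 4 of 4 libraries, although the ranges of the first 3 overlapped between libraries. Car2, Slc4a1 and Alas2 did not differ beyond their spread. Car2 was above Slc4a1 in 2 of 4 libraries and equal to it in Dhps cko replicate 1, and Slc4a1 was above Alas2 in 2 of 4.

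**Figure D1:**
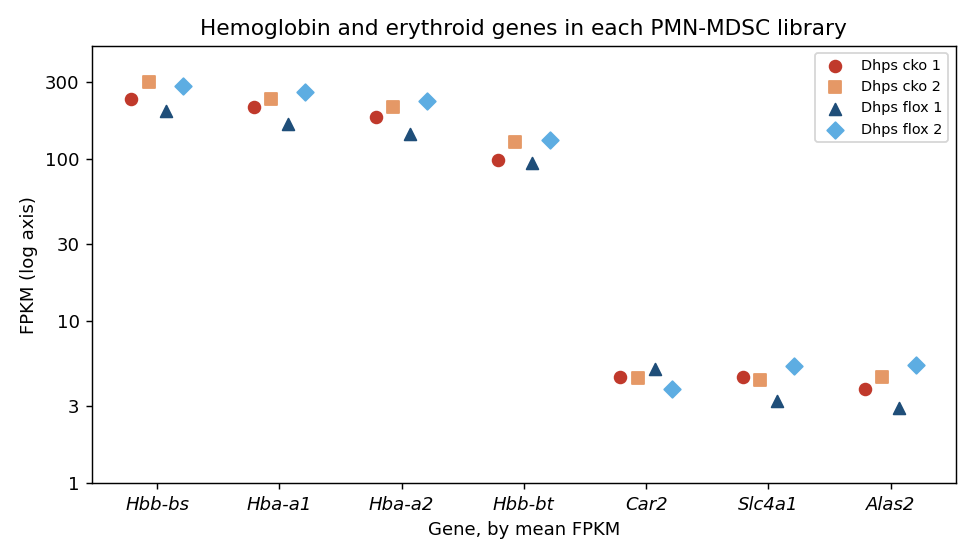
FPKM (vertical log axis) of the 7 genes with values in each of the 4 libraries, 1 point per library. The 4 adult globins lie between 94.2 and 298 FPKM and Alas2, Slc4a1 and Car2 between 2.93 and 5.35 FPKM, and for no gene do the genotypes separate.

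At the estimated depth of 29000000 to 32700000 mapped fragments per library, these levels stand for roughly 1993 to 5861 fragments for an adult globin and 180 to 696 for Alas2, Slc4a1 or Car2. These are approximations from the longest coding transcript, since FPKM carry no counts and whole reads could not be recovered. The FPKM summed to between 304281 and 319286 per library and between 10611 and 10729 genes reached 1 FPKM. Dhps was at 2.38 and 2.59 FPKM in Dhps cko and at 3.57 and 3.11 FPKM in Dhps flox. Lyz2, the locus that holds the Cre, was at 2245 and 2380 FPKM in Dhps cko and at 6874 and 6544 FPKM in Dhps flox, so both genes were lower in both Dhps cko libraries.

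Adult against embryonic globin could be described only from the adult side and from minor globins. Hbq1b, a theta-type gene of the alpha-globin cluster, was at 0.13 and 0.32 FPKM in Dhps cko and at 0.14 and 0.48 FPKM in Dhps flox. Hbq1a, its duplicate, was listed at 0 in Dhps cko replicate 1 and in both Dhps flox libraries, and at 0.13 FPKM in Dhps cko replicate 2. These values stand for fewer than 10 fragments per library, too few for a comparison of genotypes. The embryonic genes Hba-x and Hbb-y, together with Hbb-bh0, Hbb-bh2, Hbb-bh3, Hbb-b1 and Hbb-b2, were not analysed here, and no embryonic share of beta-type globin was computed.

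No member of the group passed the test between genotypes. With limma on log2(FPKM + 0.1) and Benjamini-Hochberg adjustment over 17948 genes, 0 of 7 had an adjusted p under 0.05, where 1 gene did among all genes tested (0.00557%). At an unadjusted p under 0.05 the count was also 0 of 7, where 4.72% of all genes tested passed with a higher and 2.28% with a lower level in Dhps cko. Libraries of the genotypes overlapped for 7 of 7 genes, while 36.0% of all genes tested showed no overlap.

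The log2 fold change of Dhps cko against Dhps flox was positive but small for every gene, although for Hbb-bt the mean FPKM was lower in Dhps cko (112.63) than in Dhps flox (112.98). Among the globins, Hbb-bs differed by 0.15 ± 0.20 (SE, n = 2 libraries per genotype, limma adjusted p = 0.914) and Hba-a2 by 0.11 ± 0.23 (limma adjusted p = 0.953). Hba-a1 differed by 0.10 ± 0.22 (limma adjusted p = 0.960), and Hbb-bt by 0.0040 ± 0.20 (limma adjusted p = 0.999), a sign that turned under 4 other scalings. Slc4a1 differed by 0.10 ± 0.24 (limma adjusted p = 0.963), Alas2 by 0.067 ± 0.29 and Car2 by 0.035 ± 0.15 (both limma adjusted p = 0.981). The 95% intervals were wide, from -0.37 to 0.68 for Hbb-bs and from -0.69 to 0.82 for Alas2, so moderate changes in either direction were not detectable. The median of the 7 was 0.098, beside 0.010 over all genes tested.

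The direction rested on single libraries. Without Dhps flox replicate 1, the lowest library, the log2 fold change became -0.23 for Hba-a1, -0.22 for Hba-a2, -0.10 for Hbb-bs, -0.24 for Hbb-bt, -0.36 for Alas2 and -0.25 for Slc4a1, and that of Car2 rose to 0.23. Without Dhps flox replicate 2, it was 0.43, 0.45, 0.41, 0.25, 0.49 and 0.45 for the same 6 genes and -0.16 for Car2. Without Dhps cko replicate 2, Alas2 (-0.048), Hbb-bs (-0.022) and Hbb-bt (-0.18) turned negative. The median over the 7 genes moved from 0.098 to -0.23 without Dhps flox replicate 1 and to 0.43 without Dhps flox replicate 2.

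**Figure D2:**
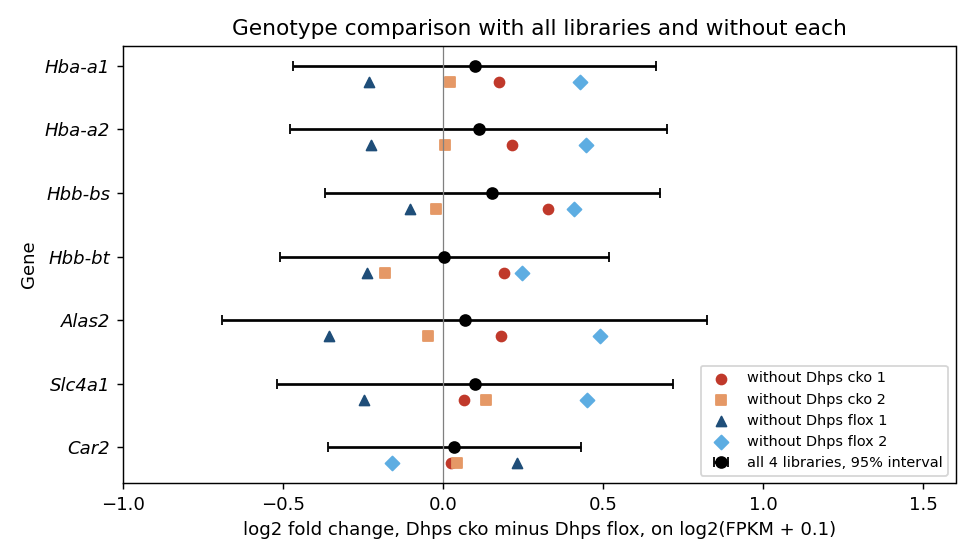
Log2 fold change of Dhps cko against Dhps flox (horizontal axis, on log2(FPKM + 0.1)) for each gene, as a black point with its 95% limma interval, and below it the value without each library in turn. Every interval spans 0, and leaving out Dhps flox replicate 1 puts 6 of 7 genes below 0.

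The sums of the near-identical copies gave the same picture. Hba-a1 and Hba-a2 together were at 391.9 and 443.6 FPKM in Dhps cko and at 308 and 488 FPKM in Dhps flox. Their log2 difference was 0.10 (exact permutation test over the 4 libraries, two-sided p = 1.00), and a design of 2 against 2 cannot give a p below 0.333. Hbb-bs and Hbb-bt together were at 332 and 425 FPKM in Dhps cko and at 293 and 415 FPKM in Dhps flox, a log2 difference of 0.11 (exact permutation test, two-sided p = 0.667). The 4 adult globins made up from 0.190% to 0.297% of all FPKM in a library, with both extremes in Dhps flox.

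What the adult globins shared most was a difference between the Dhps flox replicates. From replicate 1 to replicate 2 of Dhps flox, the FPKM ratio was 1.58 for Hba-a1, 1.59 for Hba-a2, 1.43 for Hbb-bs and 1.40 for Hbb-bt, and it was 1.83 for Alas2 and 1.64 for Slc4a1. For Car2 the ratio was 0.758. In Dhps cko the same ratio was between 1.11 and 1.29 for the globins, 1.18 for Alas2, 0.952 for Slc4a1 and 0.987 for Car2.

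On the log2 scale, the absolute difference between replicates had a median of 0.66 over the 7 genes in Dhps flox and 0.21 in Dhps cko. Among 10629 genes averaging 1 FPKM or more, the median was 0.13 in Dhps flox and 0.11 in Dhps cko. The Dhps flox difference of Alas2 (0.85) stood at the percentile 97.6 of those genes, that of Slc4a1 (0.70) at 96.4, that of Hba-a2 (0.67) at 96.1, and that of Hbb-bt (0.48) at 92.3. Car2 (0.39) was at the percentile 88.9, in the opposite direction. In Dhps cko the beta globins also spread widely, with Hbb-bs (0.35) at the percentile 89.6 and Hbb-bt (0.37) at 90.6. With 2 libraries per genotype, whether the spread itself differs between genotypes was not tested. In bulk libraries, fewer erythroid cells and less erythroid RNA per cell cannot be told apart.

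Dhps flox replicate 1 was the lowest library for 6 of 7 genes, a place it took for 27.2% of all genes tested. It was lowest and Dhps flox replicate 2 highest for 5 of 7, and for 8.24% of all genes. Genes in the same RNA pool are not independent, so these shares are a description. In the centred log2 profile, averaged over the 7 genes, Dhps cko replicates 1 and 2 were at -0.047 and 0.13 and Dhps flox replicates 1 and 2 at -0.29 and 0.21.

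**Figure D3:**
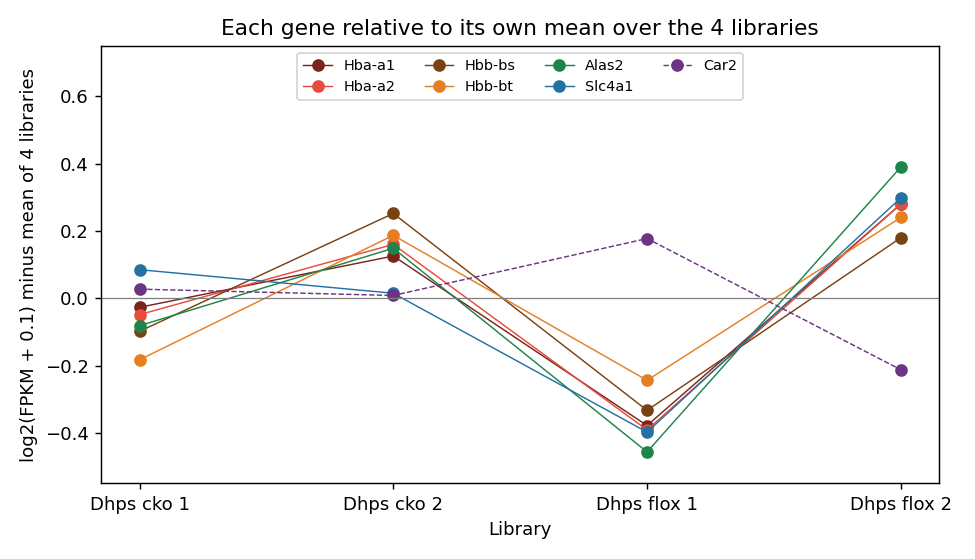
Level of each gene in each library on log2(FPKM + 0.1), minus its mean over the 4 libraries (vertical axis), with thin lines joining the points of 1 gene across unordered libraries. The globins, Alas2 and Slc4a1 are lowest in Dhps flox replicate 1, and Car2 (dashed) is highest there.

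By Euclidean distance to that profile over the 4 libraries, the nearest of the 10622 other genes averaging 1 FPKM or more were Mir6924 (0.023), Nubp1 (0.024), Tmem199 (0.038), Mapk4 (0.046) and Aebp1 (0.054). The globins themselves lay between 0.12 (Hba-a1) and 0.16 (Hbb-bt) from it, Slc4a1 at 0.22, Alas2 at 0.25 and Car2 at 0.64. With 4 points per gene and 10622 candidates, such nearness carries little information.

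Ratios within a library do not change when each library is scaled by a single factor, although quantile normalization moved them slightly. The ratio of adult alpha to adult beta globin FPKM was 1.18 and 1.04 in Dhps cko and 1.05 and 1.18 in Dhps flox, so each genotype had a high and a low library (exact permutation test, two-sided p = 1.00). Hba-a1 to Hba-a2 was 1.17 and 1.12 in Dhps cko and 1.16 and 1.15 in Dhps flox, and the genotypes overlapped (exact permutation test, two-sided p = 1.00).

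Hbb-bs to Hbb-bt was 2.38 and 2.35 in Dhps cko and 2.11 and 2.15 in Dhps flox. This ratio, singled out after its values were seen, did not overlap between genotypes and differed by 0.15 on the log2 scale, against 0.020 and 0.029 between replicates. The exact permutation test gave the smallest p the design allows (two-sided p = 0.333). The 2 genes share most of their sequence, so the ratio also depends on how shared reads were divided.

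**Figure D4:**
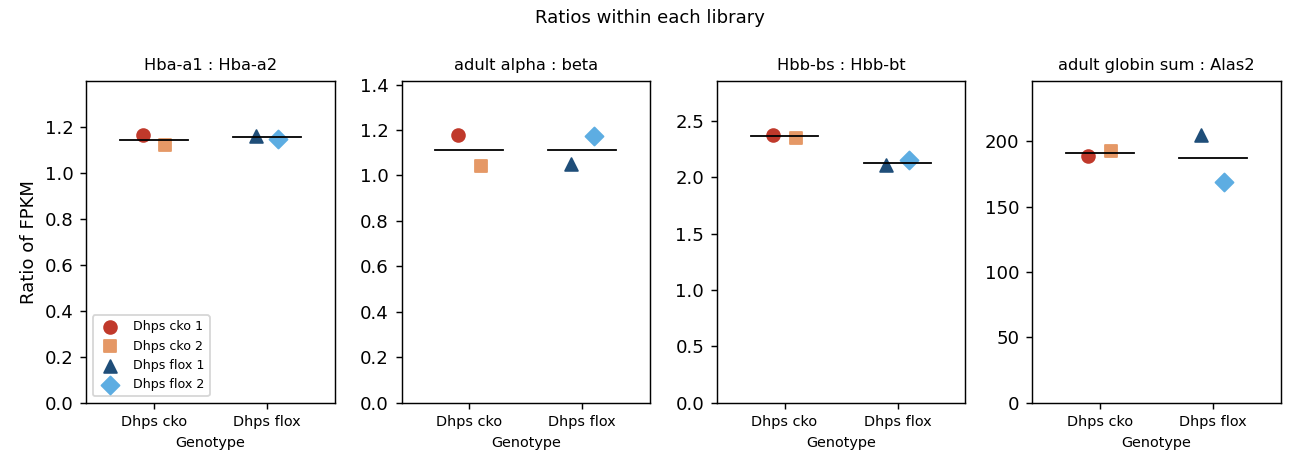
Ratios of FPKM within each library (vertical axes from 0) for Hba-a1 to Hba-a2, adult alpha to adult beta globin, Hbb-bs to Hbb-bt, and the adult globin sum to Alas2, with points for libraries and a bar for the mean of each genotype. The Hbb-bs to Hbb-bt ratio is 2.38 and 2.35 in Dhps cko and 2.11 and 2.15 in Dhps flox, and the other 3 ratios overlap.

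Genes that mark red cell precursors were far below the globins. Klf1, the transcription factor that activates adult beta globin, was at 0.58 and 1.07 FPKM in Dhps cko and at 0.15 and 0.60 FPKM in Dhps flox. Gata1, Epor and Rhag stayed under 1 FPKM in every library, and none of these 4 genes was listed at 0 in any. Measured against the label of the sort, the 10 neutrophil marker genes summed to between 71904 and 78786 FPKM. All genes of a library summed to between 304281 and 319286 FPKM, so globin mRNA was a small component beside these neutrophil transcripts.

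Klf1, named here after its values were seen, gave a log2 fold change of 1.09 ± 0.58 (limma adjusted p = 0.775). It was 0.35 without Dhps flox replicate 1, 1.84 without Dhps flox replicate 2, 0.70 without Dhps cko replicate 2 and 0.41 with a pseudocount of 1. The ratio of the adult globin sum to Alas2 was 189 and 193 in Dhps cko and 205 and 169 in Dhps flox, and that to Slc4a1 159.5 and 201.1 against 186.6 and 171.2, so these overlapped. The ratio to Klf1 was 1248 and 812 in Dhps cko and 4006 and 1506 in Dhps flox and did not overlap, but it rests on a gene at 0.15 to 1.07 FPKM, and its log2 difference of -1.29 was smaller in size than the 1.41 between the Dhps flox replicates (exact permutation test, two-sided p = 0.333, the smallest possible).

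Of 74 genes in 6 erythroid lists, 0 had a limma adjusted p under 0.05, with adjusted p-values from 0.595 upwards. At an unadjusted p under 0.05, 3 were higher in Dhps cko, where 4.72% of all genes tested were, and 0 were lower, where 2.28% were. Groups without overlap were found for 25 higher and 6 lower genes (33.8% and 8.11%), beside 20.0% and 16.0% of all genes. The median log2 fold change of the 74 was 0.080, and 31 of them had a mean under 1 FPKM.

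The transcription factor list (12 genes) had 0 called genes and a median of 0.10. Its most abundant members, Nfe2 (96.7 and 98.9 FPKM in Dhps cko, 86.9 and 94.0 in Dhps flox), Lmo2 (23.1 and 23.9 against 20.5 and 21.6) and Ldb1 (16.4 and 16.2 against 14.1 and 17.0), are shared with other blood lineages. None of these most abundant members had the 1.58-fold gap between Dhps flox replicates that Hba-a1 showed. Klf1, a low member of the same list, had a wider gap in that direction, from 0.15 to 0.60 FPKM. The haem synthesis list (13 genes) had 0 called genes and a median of 0.13. The mitochondrial iron importer Slc25a37 was at 30.2 and 30.2 FPKM against 29.6 and 30.5, Tmem14c at 28.1 and 28.3 against 24.1 and 26.1, and Alas1, the housekeeping counterpart of Alas2, at 26.3 and 25.9 against 24.0 and 25.9. In these cells Alas1 was thus above Alas2 in every library.

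In the iron list (9 genes, median 0.032), the ferritin light chain gene Ftl1 was at 381 and 372 FPKM in Dhps cko and at 336 and 308 FPKM in Dhps flox, a log2 fold change of 0.23 ± 0.07 (limma adjusted p = 0.595). The ferritin heavy chain gene Fth1 was at 147 and 145 against 141 and 137 FPKM, and Pcbp1, an iron chaperone, at 84.0 and 72.6 against 75.9 and 81.2 FPKM. Ferritin is made by macrophages and neutrophils as well as by red cell precursors. In the membrane list (19 genes, median 0.081) Epb41 was at 12.8 and 12.1 against 13.4 and 13.1 FPKM, and the glucose transporter gene Slc2a1 at 6.22 and 6.77 against 6.01 and 6.25 FPKM. The water channel gene Aqp1 was at 4.64 and 3.49 against 2.46 and 2.97 FPKM, a log2 fold change of 0.56 ± 0.18 (limma adjusted p = 0.648). Of this list, 14 genes had a mean under 1 FPKM.

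Among red cell enzymes (9 genes, median 0.21) the glutathione peroxidase gene Gpx1 was at 318 and 284 FPKM in Dhps cko and at 244 and 278 FPKM in Dhps flox. Hk1, which encodes a hexokinase, was at 25.4 and 23.9 against 24.0 and 26.9 FPKM, and Cat, the catalase gene, at 12.8 and 14.2 against 12.6 and 13.3 FPKM. The ubiquitin-conjugating enzyme gene Ube2l6, named because it was, with Ftl1 and Aqp1, 1 of the 3 genes past the unadjusted threshold, was at 10.1 and 10.5 against 8.86 and 8.47 FPKM (limma adjusted p = 0.629). The list of receptors and late stage genes (12 genes) had a median of -0.0087, with the mitophagy receptor gene Bnip3l at 61.0 and 65.1 against 66.6 and 59.97 FPKM, Mxi1 at 22.9 and 25.4 against 23.8 and 22.7 FPKM, and Cpeb4 at 21.5 and 20.4 against 23.3 and 21.8 FPKM.

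**Figure D5:**
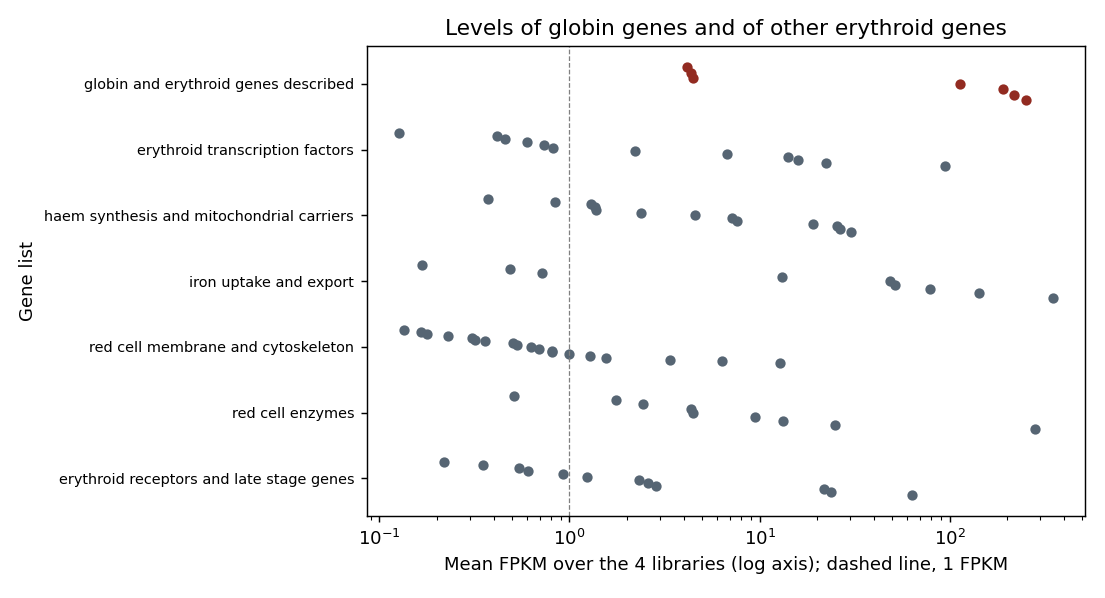
Mean FPKM over the 4 libraries (horizontal log axis, dashed line at 1 FPKM) of each gene tested, by list, with the 7 globin and erythroid genes in red. The adult globins stand at 113 to 254 FPKM, while 31 of the 74 other erythroid genes lie under 1 FPKM.

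Markers of other cells were read beside the globins. The platelet list, of which 5 of 8 genes were tested, was lowest in Dhps flox replicate 1 (3.10 FPKM summed) and highest in Dhps flox replicate 2 (5.90 FPKM), as were Hba-a1 and Alas2, with 4.46 and 3.47 FPKM in Dhps cko. Its most abundant gene, Gp1ba, was at 1.29 and 1.12 against 1.44 and 1.47 FPKM. The red pulp macrophage list summed to 176 and 186 FPKM in Dhps cko and to 156 and 143 FPKM in Dhps flox. Its most abundant gene, the iron exporter gene Slc40a1, was at 51.0 and 53.6 against 52.2 and 50.2 FPKM. The complement genes C1qa (25.7 and 28.3 against 18.6 and 18.7 FPKM), C1qb (27.3 and 32.3 against 20.3 and 18.1) and C1qc (20.96 and 18.5 against 14.9 and 12.9), named after their values were seen because the separation of the sum rested on them, had limma adjusted p-values of 0.379, 0.470 and 0.488. Without these 3 the list summed to 101.6 and 107.1 FPKM against 102.6 and 93.6 FPKM, and the genotypes overlapped. Since the 3 were picked for their difference, leaving them out was bound to weaken the separation. Of the 9 genes of the list, 5 were higher in Dhps cko without overlap and 0 were lower in this way. Besides the complement genes these were Adgre1 (16.74 and 16.53 against 15.35 and 13.2 FPKM) and Cd163 (3.12 and 2.99 against 2.50 and 2.81 FPKM). Red pulp macrophages take up ageing red cells.

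The summed markers of red pulp macrophages, of B cells, of T cells and of eosinophils and basophils lay higher in both Dhps cko libraries than in either Dhps flox library, a separation the globins did not show. Among all genes tested, 20.0% lay higher in this way, and 0 genes of these lists had a limma adjusted p under 0.05. The B cell list summed to 62.8 and 65.4 FPKM against 40.3 and 49.4 FPKM (Ighm at 40.6 and 42.9 against 27.0 and 32.0), and the T cell list to 16.9 and 13.5 FPKM against 10.8 and 7.31 FPKM (Trbc2 at 8.25 and 5.36 against 3.57 and 1.51). The eosinophil and basophil list summed to 20.0 and 19.1 FPKM against 11.5 and 15.9 FPKM, with Siglecf at 4.88 and 5.53 against 4.49 and 5.62. Xist, made by the inactive X chromosome of females, was at 27.5 and 20.3 against 16.2 and 17.2 FPKM, and 4 of 4 Y-linked genes were lower in both Dhps cko libraries, as were 16.0% of all genes tested. The limma adjusted p was 0.626 for Xist and from 0.348 to 0.568 for the Y-linked genes, and the labels do not give the sex of the pups. Alas2 lies on the X chromosome. The part of these cells and of sex in the globin and Alas2 values was not tested.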

How the data were processed

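RNA sequencing was performed on splenic PMN-MDSCs of 4 samples, 2 Dhps cko and 2 Dhps flox, grouped by the genotype label. The authors filtered reads with Cutadapt, aligned them with HISAT2 and calculated FPKM per gene with StringTie and ballgown, and the deposited FPKM values have 2 decimals. The build in the submitters' processing notes is mm10. The annotation, the strand setting and the treatment of reads with several matches are not given in the sources used here. FPKM depend on the most abundant genes of a library, of which the 10 highest held 29.9% to 31.4% of the sum.

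Genes averaging 0.1 FPKM or more were compared on log2(FPKM + 0.1) with limma 3.58.1 in R 4.3.3 (lmFit, eBayes with a mean-variance trend, no block), with Benjamini-Hochberg adjustment over 17948 genes and a threshold of 0.05. Fold changes on this scale understate those of low genes. In simulated libraries of these 17948 genes for this comparison, 61.8% of the genes given a log2 change of 1.5 were called, and 87.7% of those given a log2 change of 3, with a mean of 8.5 unchanged genes called per run. Each simulated gene had the average variance of genes of like level. The globins, Alas2 and Slc4a1 spread more than most genes between the Dhps flox replicates, so these rates may be too high for them. Sums and ratios were compared by exact permutation tests. Python 3.11.15 (numpy 2.4.6, pandas 2.3.3, scipy 1.17.1, matplotlib 3.10.9) was used for other steps.

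The genes and lists were chosen with earlier results of these data known. Genes named are the globin and erythroid genes, other globins, the 3 most abundant genes of each erythroid list and any past the threshold (or with an unadjusted p under 0.05 and an absolute log2 fold change of at least 1), the most abundant gene of each marker list, the 5 genes nearest in profile, Dhps and Lyz2. Klf1, Gata1, Epor, Rhag, Ube2l6, Car1, Hemgn, Cldn13, C1qa, C1qb, C1qc, Adgre1 and Cd163 were named outside this rule, after their values were seen. Coordinates and coding sequences are from GENCODE M21 (GRCm38), and promoters from RefSeq (GRCm38.p6), matched by symbol. Some genes of the lists are counted but not reported here by name. Depth was estimated as the value that best fitted the spacing of low FPKM values, 38.6% to 41.9% of which were then close to a whole step. Chance gives 30% at a depth fixed in advance. The best of many depths was taken here, so the excess over 30% does not measure how accurate the depth is. The pseudocount, the filter, the scaling and the variance model were varied, a replicate block was added, and each library was left out in turn.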

Additional observations from a re-analysis of the deposited data

How the results depend on the processing

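Under 11 other settings and without each library, 0 of the 7 genes had an adjusted p under 0.05. With all libraries kept, Hbb-bt changed sign, to -0.0281 when rescaled to TPM, -0.008 with median-of-ratios size factors, -0.0667 with quantile normalization and -0.028 when rescaled to a sum without the globin and erythroid genes, and no other gene of the 7 did. Leaving out each library gave log2 fold changes of -0.2308 to 0.4277 for Hba-a1, -0.2245 to 0.4472 for Hba-a2, -0.103 to 0.4101 for Hbb-bs, -0.2381 to 0.246 for Hbb-bt, -0.3566 to 0.4903 for Alas2, -0.2485 to 0.4479 for Slc4a1 and -0.1598 to 0.2302 for Car2, with medians of -0.2308 to 0.4277. It gave -0.2279 to 0.4369 for the adult alpha-globin sum, -0.1446 to 0.3594 for the beta-globin sum and -0.0917 to 0.0859 for the log2 alpha to beta ratio. The log2 Hbb-bs to Hbb-bt ratio, added after the values were seen, stayed between 0.1352 and 0.164. The cause of these changes was not tested, but the genotype that loses a library then has a lone one, assumed to vary like the other genotype.

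Over all genes, 1 was called by limma (Gm20716, at 5.60 and 5.75 FPKM in Dhps cko and listed at 0 in Dhps flox), 1257 having an unadjusted p under 0.05. The count was 4 with genes averaging 1 FPKM or more, 2 when rescaled to TPM, with quantile normalization or with a robust prior, 0 with a pseudocount of 0.01, without a filter (1675 at an unadjusted p under 0.05) or when any 1 library was left out. With the replicate number as a block 0 genes were called (1082 at an unadjusted p under 0.05) and 0 of the 7. Over 10629 genes, which are not independent, same-numbered libraries did not deviate together (Pearson r of -0.057), so the numbers were not taken as pairs. The adult globins and Alas2 were nonetheless lower in replicate 1 than in replicate 2 of both genotypes, and Car2 was higher. Slc4a1 was lower in replicate 1 only in Dhps flox. Whether same-numbered libraries share a batch that affects these genes was not tested. The Hbb-bh1 share could not be computed. With 2 libraries per genotype and approximate fragments, small differences in these genes were not detectable.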

Other observations

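Car1, a second carbonic anhydrase gene of red cells, singled out after its values were seen, was at 1.65 and 1.17 FPKM in Dhps cko and at 3.03 and 1.17 FPKM in Dhps flox. Its highest library was Dhps flox replicate 1, as for Car2, and unlike the globins, for which that library was the lowest. Hemgn and Cldn13, also named after their values were seen, were lowest in Dhps flox replicate 1 and highest in Dhps flox replicate 2. Hemgn was at 1.38 and 1.2 FPKM in Dhps cko and at 0.77 and 1.62 FPKM in Dhps flox. Cldn13 was at 0.56 and 0.38 against 0.27 and 0.81 FPKM. Rhag (0.6 and 0.79 against 0.88 and 0.49 FPKM) went the other way. How many erythroid genes took each order was not counted. The alpha-globin pseudogene Hba-ps4 was at 0.20 and 0.20 FPKM in Dhps cko, listed at 0 in Dhps flox replicate 1 and at 0.21 FPKM in Dhps flox replicate 2.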
